A study of Mus musculus with 4 samples.

Results

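Wnt ligands, their receptors and the secreted proteins that bind them were followed in whole colon RNA of mice with dextran sulphate sodium (DSS) colitis. The members were taken by gene name from the array design and not by their values, though the family was chosen with earlier results of these data known. They were the numbered Wnt, Fzd, Sfrp, Dkk and Rspo genes together with Wif1, Frzb, Lrp5 and Lrp6. There were 45 such genes among 37074 gene names on the array, on 64 of 56605 probes, and 27 of the 45 were bright enough to test among 19326 genes tested. The mice were C57BL/6, the colon was taken on day 5 of DSS in the drinking water, and each of 4 samples has its own one-colour Agilent array. The 2 control samples were Junbfl/fl, with floxed alleles of the AP-1 transcription factor gene Junb and no Cre. The 2 mutant samples were Junbfl/flCd4-Cre, which carry the same floxed alleles and a Cre driven by Cd4 sequences that deletes floxed DNA in the T cell lineage, so that Junb stays intact in epithelium and stroma. All 4 samples had DSS and floxed Junb, no group without DSS was analysed here, and the labels used here give no age. The labels do not say that a sample is 1 mouse, so a p-value measures the spread between these samples.

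Wnt proteins are lipid-modified short-range signals. A Wnt bound to a Frizzled receptor (Fzd) and an Lrp5 or Lrp6 co-receptor keeps beta-catenin from being degraded, and beta-catenin then activates genes with TCF and LEF factors, which maintains the stem cells at the base of the colon crypt. Other Wnts, Wnt5a among them, act through Frizzleds without beta-catenin, on cell shape and movement. Sfrp proteins, Frzb and Wif1 bind Wnts outside the cell, Dkk proteins typically bind the Lrp co-receptors and block them, and R-spondins (Rspo) keep Frizzleds on the surface by way of Lgr receptors. In the gut, subepithelial fibroblasts and muscle make many of these ligands and modulators, whereas the epithelium responds to them. In RNA of a whole tissue, fewer cells of a type and less RNA per cell cannot be told apart.

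Each array had 27940 to 29091 probes well above background and 0 saturated spots. Junb itself, which the mutant colon keeps outside T cells, had a scaled signal of 1874 and 2091 in the controls against 2167 and 2213 in the mutants, so these values do not test the deletion in T cells. All 10 colon epithelium markers looked for, among them Cdx2, Vil1 and Muc2, were well above background on all 4 arrays. Xist, the RNA of the inactive X, was 68.3 and 58.8 in the replicate 1 samples and 1.43 and 1.16 in the replicate 2 samples, and the Y-linked Eif2s3y and Ddx3y were well above background in the replicate 2 samples only, the pattern of females as replicate 1 and males as replicate 2. The probe of another Y-linked gene, Kdm5d, did not follow it, at 17.5 to 21.0 and well above background on all 4 arrays. Pairs of arrays had a Pearson's r of 0.976 to 0.984 across 19326 genes and of 0.949 to 0.977 across the 27 Wnt genes, where genes are not independent replicates. The lowest of the latter was between control replicate 2 and mutant replicate 1.

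The comparison asked whether the genes that send, receive and modulate Wnt signals differ in the mutant colon, which the submitters describe as having the more severe colitis. None of the 27 genes differed past the threshold. No member had a limma adjusted p under 0.05, against 0% of all genes tested, and the smallest adjusted p of a member was 0.561. At an unadjusted p under 0.05 there was also no member, against 9.29% of all genes tested. The replicate arrays of the groups did not overlap for 10 of the 27, of which 4 were higher and 6 lower in the mutants, against 43.2% of all genes (25.7% higher and 17.6% lower). A share of 10 in 27 is near that background and is no result about the Wnt genes. The difference was larger than the wider of the 2 gaps between replicates for 7 of 27 members, or 25.9%, beside 29.9% of all genes. These 7 were Wnt1, Wnt11, Fzd2, Fzd6, Fzd9, Lrp5 and Sfrp5.

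**Figure D1:**
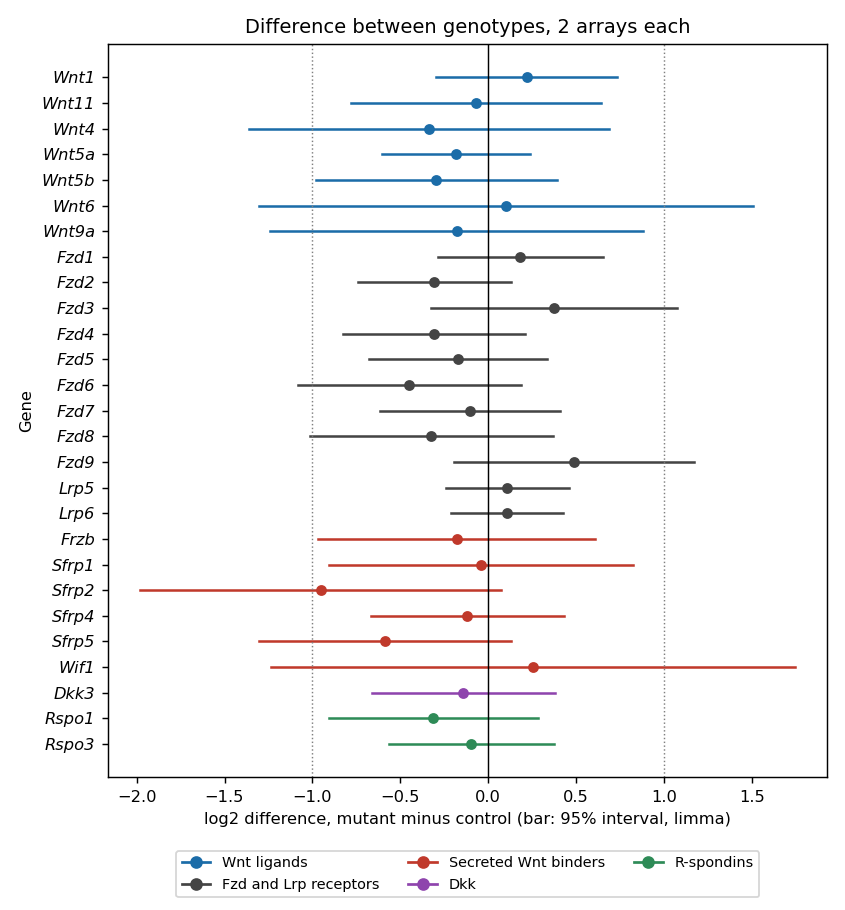
Difference between the genotypes for each of the 27 Wnt genes tested. The x axis is mutant minus control on the log2 scale, each dot is the limma estimate from 2 arrays a group, each bar is its 95% interval, and the dotted lines mark a 2-fold difference either way. Every interval includes 0, the lowest estimate is Sfrp2 at -0.95 and the highest is Fzd9 at 0.49.

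The estimated differences were all within 2-fold either way, though for some members the interval was wide. They ran from -0.95 to 0.49 on the log2 scale, with a median of -0.14 beside 0.02 for all genes tested. For 17 of the 27 the 95% interval of the difference lay within 2-fold either way, and for these a larger change is outside the interval. That is a lower share than the 78.1% of all genes. The interval took in a 2-fold lower level for 8 members and a 2-fold higher level for 4, with Wif1 and Wnt6 among both. For these the 2 arrays a group leave a 2-fold change within reach. The median was below 0 in each role, at -0.18 for 7 Wnt ligands, -0.10 for 11 receptors, -0.15 for 6 secreted Wnt binders and -0.20 for 2 R-spondins. These signs did not hold under every setting. The receptors were at 0.02 after normexp background correction. Without control replicate 2 the ligands were at 0.13 and the R-spondins at 0.0062. In all, 19 of 27 members were lower in the mutants, or 70.4%, and 8 were higher, beside 46.7% lower and 53.3% higher of all genes tested. That count depends on single samples, and the median also on the processing. Without control replicate 2, 12 of 27 were lower, or 44.4%, and the median was 0.01. Without mutant replicate 1, 15 were lower. After normexp background correction the median was -0.05, beside 0.03 for all genes, and 17 were lower. After quantile normalization it was -0.09, beside -0.00026, and again 17 were lower. Without the filter on dim probes it was -0.18 for 45 members, beside -0.12 for all genes.

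Of 19 Wnt ligands on the array 7 were tested, Wnt1, Wnt4, Wnt5a, Wnt5b, Wnt6, Wnt9a and Wnt11. Signals are given scaled, as a share of the intensity at the 75th percentile of the same array, which is set to 100. A difference in signal between probes is not read as a difference in RNA amount. Sums over a gene list are given by array and depend most on its brightest probes. Wnt5a, a ligand of the stroma known for its part in the repair of colon crypts after wounding, had scaled signals of 98.3 and 119 in the controls against 88.8 and 103 in the mutants (probe on chromosome 14, 29336664 to 29336723, mm9). The lower mutant lay below both controls and the other between them, so the groups overlapped. The difference was -0.18 ± 0.17 on the log2 scale (SE, n = 2 and 2 arrays; 95% interval -0.60 to 0.24, limma adjusted p = 0.747). A further Wnt5a probe above background on all 4 arrays gave -0.25. Its relative Wnt5b, also mainly a ligand of the branch without beta-catenin, had scaled signals of 63.1 and 106 in the controls against 65.7 and 67.4 in the mutants. Control replicate 2 stood apart from the other 3 arrays, which lay within a few units of each other. The log2 difference of -0.30 ± 0.27 was 0.08 without that sample.

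The third Wnt5a probe stayed under the background limit in all 4 samples. It is shown because its sequence tells what it reads: its 60 bases span 3963 bases of the genome (chr14:29331746-29335708, mm9, plus strand), so it bridges an intron, and 1 of its 3 forward reading frames has no stop codon.
Wnt5a junction probe: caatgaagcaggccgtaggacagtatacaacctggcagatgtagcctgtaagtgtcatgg
Both other Wnt5a probes lie at higher coordinates on the same strand. The junction probe has no measured level.

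Wnt4 and Wnt6 varied widely between replicates. This ligand, which acts in both branches depending on the cell, had scaled signals of 54.3 and 104 in the controls against 77.7 and 45.6 in the mutants. The highest and the lowest value were thus a control and a mutant of the same replicate number, with the other pair the other way round. The log2 difference of -0.34 ± 0.40 was 0.13 without control replicate 2 and -0.80 without control replicate 1. Wnt6 had scaled signals of 7.71 and 15.2 in the controls against 7.58 and 17.8 in the mutants. Both replicate 2 samples were higher than both replicate 1 samples, and the genotypes differed by 0.10 ± 0.55. Wnt9a was also higher in both replicate 2 samples than in both replicate 1 samples, at signals of 6.72 and 10.4 in the controls against 5.77 and 9.49 in the mutants, and it was well above background on 1 array of each group only.

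Wnt1 and Wnt11 were the ligands whose groups did not overlap, and both differences were small. Wnt1, the founding member of the family, had scaled signals of 21.0 and 19.1 in the controls against 22.0 and 24.7 in the mutants, a log2 difference of 0.22 ± 0.20. Wnt11, a ligand of the branch without beta-catenin, had 9.01 and 8.64 in the controls against 8.26 and 8.54 in the mutants, a difference of -0.07 ± 0.28 that was 0.10 after normexp background correction. Neither passed the test.

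The other 12 ligands were not tested. They were Wnt2, Wnt2b, Wnt3, Wnt3a, Wnt7a, Wnt7b, Wnt8a, Wnt8b, Wnt9b, Wnt10a, Wnt10b and Wnt16, and 9 of them were not well above background on any array. Wnt3, a ligand of Paneth cells in the small intestine, stayed at a scaled signal between 1.36 and 2.21. Wnt2b, a ligand of gut mesenchyme, stayed between 1.27 and 2.71. The lowest signal counted as well above background was 5.24 to 6.39 on these arrays, and these ligands have no measured level. That limit is not the same for every spot. Wnt9a, at 6.72 in control replicate 1, was not counted, though the lowest signal counted on that array was 6.31. Wnt2 reached 10.3 in control replicate 2 only, Wnt7b reached 5.63 in mutant replicate 2 only, and Wnt9b reached 30.3 in mutant replicate 2 with 1.35 to 1.49 on the other 3 arrays.

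**Figure D2:**
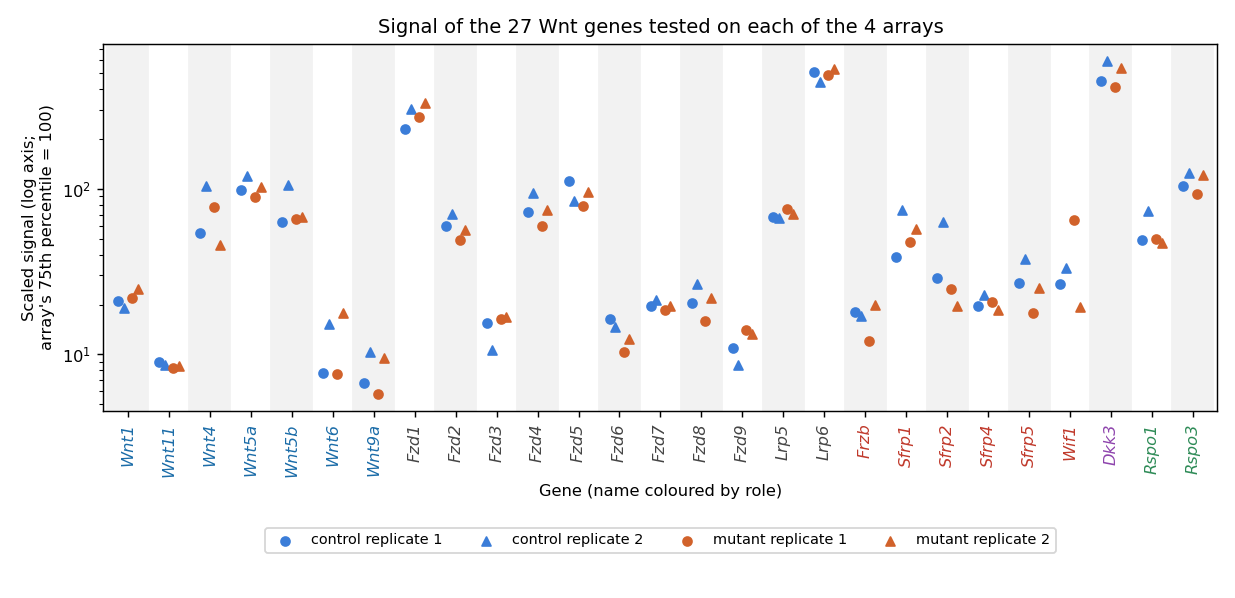
Scaled signal of each of the 27 Wnt genes tested on each of the 4 arrays, on a log axis where 100 is the array's 75th percentile. Blue marks controls and orange mutants, circles replicate 1 and triangles replicate 2, and gene names are coloured by role. The colours mix for most genes, Wif1 has 1 high mutant at 65.2 and Sfrp2 has 1 high control at 62.7.

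Among the receptors, 9 of 10 Frizzleds and both Lrp co-receptors were tested, and the differences went both ways, with 5 higher and 6 lower. The co-receptors had the smallest standard errors of the fit. Lrp6 had scaled signals of 509 and 443 in the controls against 491 and 532 in the mutants, and the mutants took the highest place and the second lowest. Its log2 difference was 0.11 ± 0.12, with a 95% interval of -0.21 to 0.42, and its other probe gave 0.20. Lrp5 had 67.7 and 67.0 in the controls against 75.1 and 70.3 in the mutants. Both mutants were above both controls, by 0.11 ± 0.14 (95% interval -0.24 to 0.46). Its other probe, at 0.05, had the same sign.

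Fzd1 gave 231 and 303 in the controls against 273 and 331 in the mutants, with a log2 difference of 0.18 ± 0.18 and overlapping groups. Fzd2 had scaled signals of 59.6 and 70.2 in the controls against 48.8 and 56.1 in the mutants, so that both mutants were below both controls. Its difference of -0.31 ± 0.17 (95% interval -0.74 to 0.13, limma adjusted p = 0.621) was close to equal in the replicate 1 pair (-0.29) and the replicate 2 pair (-0.32). The probe that gave these values and the dimmer of the Fzd5 probes are shown, since both have a forward reading frame without a stop codon (2 of 3 frames in each). The Fzd2 probe lies at chr11:102467613-102467672 on the plus strand and the Fzd5 probe at chr1:64781972-64782030 on the minus strand, both mm9.
Fzd2 probe: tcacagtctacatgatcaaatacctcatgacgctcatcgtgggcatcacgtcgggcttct
Fzd5 probe: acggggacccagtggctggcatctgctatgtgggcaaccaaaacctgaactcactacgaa
For Fzd5, a receptor of intestinal epithelium needed for Paneth cell maturation in the small intestine, the printed probe gave scaled signals of 22.6 and 18.5 in the controls against 18.7 and 25.2 in the mutants. The brighter probe gave 112 and 85.0 against 78.9 and 95.8. The probes differed in sign, at 0.09 for the printed one and -0.17 ± 0.20 for the brighter one, and in both the groups overlapped.

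Fzd6, a Frizzled of planar cell polarity, had scaled signals of 16.3 and 14.7 in the controls against 10.4 and 12.4 in the mutants. Both mutants were below both controls, by -0.45 ± 0.25 (95% interval -1.08 to 0.19, limma adjusted p = 0.621). After normexp correction the difference was -0.10. Fzd9 had 10.9 and 8.62 in the controls against 14.1 and 13.2 in the mutants. Both mutants were above both controls, by 0.49 ± 0.27 (95% interval -0.19 to 1.17, limma adjusted p = 0.619), and by 0.25 after normexp correction. These values belong to the lower end of the signals measured.

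Of the other Frizzleds, Fzd3, a polarity receptor of neurons, had 15.4 and 10.7 in the controls against 16.4 and 16.9 in the mutants, with groups that did not overlap and a log2 difference of 0.38 ± 0.27. Fzd4, which also serves as the receptor for norrin in blood vessels, had 72.7 and 94.6 in the controls against 60.0 and 74.9 in the mutants. Its groups overlapped by a small margin, the difference was -0.31 ± 0.20, and its other probe gave -0.14. Fzd7, a receptor of Lgr5+ stem cells of the gut, had 19.7 and 21.4 in the controls against 18.6 and 19.6 in the mutants, close to equal on all 4 arrays, with a difference of -0.10 ± 0.20. Fzd8 differed by -0.32 ± 0.27 with overlapping groups. Fzd10 was well above background in control replicate 2 only, at 9.0, and was not tested.

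Of the members tested, the secreted Wnt binders held those with the largest differences. Sfrp2, made by fibroblasts, had scaled signals of 29.0 and 62.7 in the controls against 24.8 and 19.5 in the mutants (chromosome 3, 83577864 to 83577923, mm9). Both mutants were below both controls, and control replicate 2 was far above the other 3 arrays. The log2 difference was -0.95 ± 0.40 (SE, n = 2 and 2 arrays; 95% interval -1.98 to 0.07, limma adjusted p = 0.561), and it was -0.40 without control replicate 2. Sfrp5 had 26.9 and 37.7 in the controls against 17.8 and 25.2 in the mutants (chromosome 19, 42272509 to 42272568, mm9). Both mutants were below both controls here too, though the higher mutant was within 2 units of the lower control. The log2 difference of -0.59 ± 0.28 (95% interval -1.31 to 0.13, limma adjusted p = 0.591) was -0.59 in the replicate 1 pair and -0.58 in the replicate 2 pair. It was -0.30 after normexp correction.

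Wif1 had the widest spread of all members tested. Its scaled signals were 26.5 and 33.3 in the controls against 65.2 and 19.2 in the mutants (chromosome 10, 120537079 to 120537138, mm9), so the mutants lay on either side of both controls. The log2 difference of 0.25 ± 0.58 had a 95% interval of -1.24 to 1.74. It was 1.13 without mutant replicate 2 and -0.63 without mutant replicate 1. Hoxb13, a Hox gene of the distal colon that marks position along the gut, had scaled signals of 2831.4 and 1143.6 in the controls against 2149.6 and 294.5 in the mutants, lowest in the mutant sample that was lowest for Wif1. It made up most of the summed signal of the 6 distal colon Hox genes tested, of which 5 were lowest in that sample and Hoxa11 was not, at 105.4 and 114.4 against 130.8 and 125.3. The part of position in the Wif1 values was not tested.

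The remaining Wnt binders were level between the genotypes within a wide error. Sfrp1 had scaled signals of 38.6 and 74.7 in the controls against 47.8 and 57 in the mutants, so both mutants lay between the controls. Its difference was -0.04 ± 0.34, and 0.43 without control replicate 2. Sfrp4 had 19.5 and 23.0 against 20.7 and 18.5, a difference of -0.12 ± 0.21. Frzb, also called Sfrp3, had 18.1 and 17.0 against 12 and 19.8, a difference of -0.18 ± 0.31, and its other probe gave 0.04.

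Of the 4 Dkk genes only Dkk3 was tested. Dkk3 is the divergent member of the family, and it is not a typical blocker of Lrp co-receptors. Its scaled signals were 452 and 596 in the controls against 411 and 540 in the mutants. The replicate 2 samples were higher than the replicate 1 samples in both genotypes, and the difference between genotypes of -0.14 ± 0.20 was alike in the pairs at -0.14 and -0.14. Its other probe above background gave -0.12. Dkk1, Dkk2 and Dkk4, the inhibitors that bind Lrp5 and Lrp6, had no array well above background. The signal of Dkk1 stayed between 1.13 and 1.39.

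Rspo1 and Rspo3 were tested of the 4 R-spondins, and Rspo2 and Rspo4 were not well above background on any array. Rspo3, the R-spondin of stromal cells beneath the crypts, had scaled signals of 104 and 124 in the controls against 93.8 and 121 in the mutants. The groups overlapped and the log2 difference was -0.10 ± 0.18 (95% interval -0.57 to 0.38, limma adjusted p = 0.892). A second Rspo3 probe was well above background in control replicate 2 only. Rspo1 had 49.2 and 73.8 in the controls against 49.8 and 47.3 in the mutants. Control replicate 2 was alone above 3 nearly equal samples. The difference of -0.31 ± 0.23 was -0.02 without that sample.

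**Figure D3:**
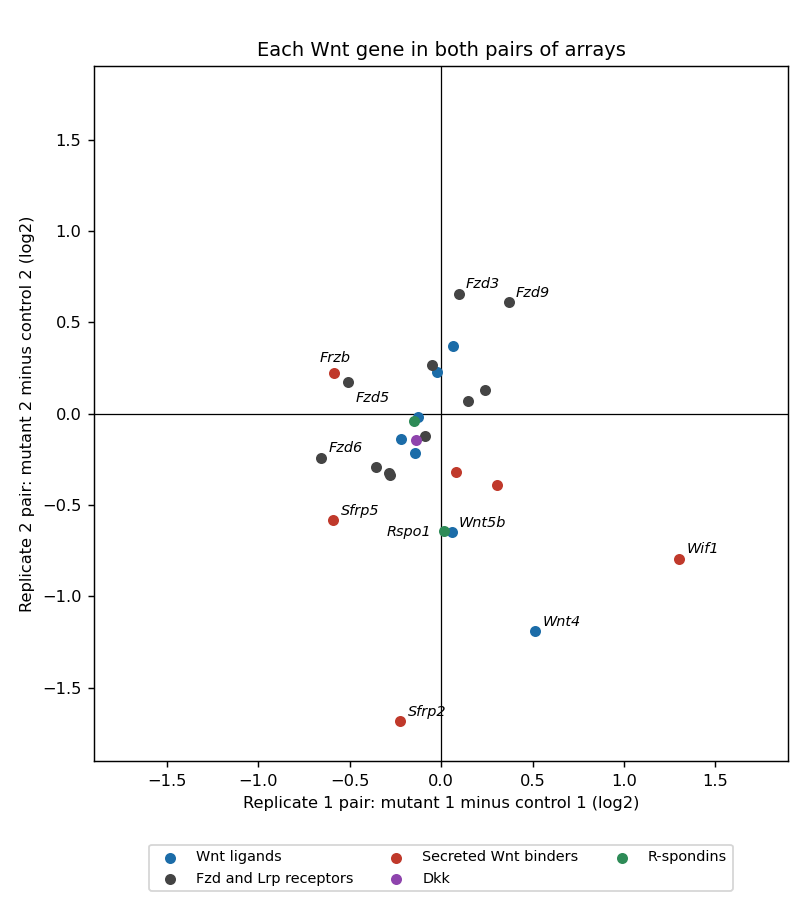
Mutant minus control within the replicate 1 pair (x axis) against the replicate 2 pair (y axis), on the log2 scale, for the 27 Wnt genes tested, coloured by role. Genes with a difference over 0.5 in either pair are named. Wif1 at 1.30 and -0.79 and Wnt4 at 0.52 and -1.19 lie in the quadrant of opposite signs, and Sfrp5 at -0.59 and -0.58 lies on the diagonal.

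The pairs share a replicate number and the pattern of Xist, Eif2s3y and Ddx3y. Within them, 12 members were lower in both pairs, 5 were higher in both and 10 had opposite signs. Among all genes tested, 29.1% were lower in both pairs, 36.3% were higher in both, and 65.4% had the same sign. The members lower in both pairs were Dkk3, Rspo3, Sfrp2, Sfrp5, Wnt5a, Wnt9a, Wnt11, Fzd2, Fzd4, Fzd6, Fzd7 and Fzd8, and those higher in both were Wnt1, Fzd1, Fzd3, Fzd9 and Lrp5.

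Both replicate 2 samples tended to be above the replicate 1 sample of their genotype. Mutant replicate 2 was above mutant replicate 1 for 20 of the 27 members, beside 56.1% of all genes tested. Control replicate 2 was the highest of the 4 arrays for 15 of the 27 members, beside 21.6% of all genes tested, and above control replicate 1 for 18 of 27, beside 54.5%. Relative to each gene's mean over the arrays, the median member was at 0.18 in control replicate 2, -0.05 in control replicate 1, -0.17 in mutant replicate 1 and 0.01 in mutant replicate 2. The medians of the fibroblast and endothelial marker lists were also highest in control replicate 2. The 12 fibroblast and telocyte markers had a median of 0.36 in control replicate 2 and -0.22, -0.21 and 0.09 in the other samples, in the same order. Not every marker followed it. Grem1, Pdpn and Foxl1 were highest in mutant replicate 2, at 1489.8, 651.1 and 12.3. Gli1 was highest in control replicate 1, at 36.6, where Foxl1, at 5.59, was not well above background. The summed signal of the 12 was 10689.6 and 16371.8 in the controls against 10756 and 14004 in the mutants. The 8 endothelial markers gave 0.37 in control replicate 2 and -0.08, -0.46 and 0.06 in the others, though Cdh5 was highest in control replicate 1, at 99.2. The part of these cells in the Wnt values was not tested. Smooth muscle markers had another pattern, with all 10 lower in both mutants than in both controls, beside 17.6% of all genes tested. Their summed signal was 41485.5 and 45214.9 in the controls against 31720.8 and 30772.2 in the mutants, and their median difference was -0.59. Adipocyte markers had a median difference of -1.405, with 5 of 6 lower in both mutants and Lep higher. The part of muscle and fat in the Wnt values was not tested. The marker lists were chosen with earlier results of these data known, and genes of a list are not independent replicates.

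**Figure D4:**
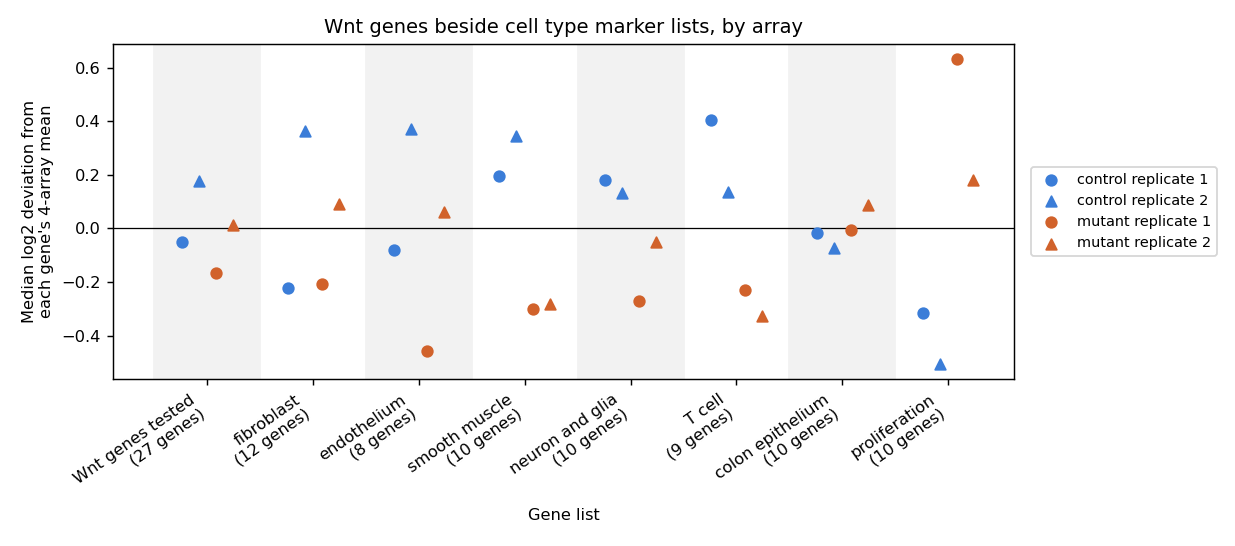
Median deviation of each gene list on each array from the mean of its genes over the 4 arrays, on the log2 scale, for the Wnt genes tested and 7 marker lists. Blue marks controls and orange mutants, circles replicate 1 and triangles replicate 2. The Wnt genes, fibroblast and endothelial lists are highest in control replicate 2, whereas the smooth muscle, T cell and proliferation lists, among others, separate the controls from the mutants. The adipocyte list is not shown.

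Other genes of the pathway were counted from 3 lists. No gene of them had an adjusted p under 0.05, so the counts that follow are at an unadjusted p, where all genes gave 5.31% higher and 3.98% lower. Of 27 tested genes for Wnt release and other surface partners, 2 were higher and 1 was lower. Gpc3, a cell surface proteoglycan that binds Wnts, had scaled signals of 72.1 and 62.1 in the controls against 35.8 and 45.1 in the mutants, a log2 difference of -0.74 ± 0.19 (limma adjusted p = 0.420). Celsr1, a cadherin of planar cell polarity, had 627 and 556 against 942 and 780, a difference of 0.54 ± 0.14 (limma adjusted p = 0.426). The R-spondin receptor Lgr5, also a target of the pathway, had 13.4 and 7.19 against 45.7 and 22.2. Its log2 difference was 1.70 ± 0.48 (limma adjusted p = 0.43), and its value in control replicate 2 was not well above background. Porcn, the acyltransferase that attaches the lipid to Wnts, differed by -0.34 ± 0.15 with both mutants below both controls, and the Wnt transporter Wls by -0.21 ± 0.18. The ligases Rnf43 (0.05 ± 0.26) and Znrf3 (-0.03 ± 0.16), which remove Frizzleds from the surface and which R-spondins oppose, were close to 0. The median of the list was -0.08.

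None of 34 intracellular components was at an unadjusted p under 0.05, and their median was 0.03. Ctnnb1, which encodes beta-catenin, differed by 0.04 ± 0.11, Apc by 0.23 ± 0.28 and the main TCF factor of the gut, Tcf7l2, by 0.04 ± 0.17. Lef1, which T cells also express, had scaled signals of 34.9 and 25.1 in the controls against 21.1 and 20.1 in the mutants, a difference of -0.52 ± 0.24. T cell markers were lower in the mutants in 9 of 9 cases, beside 46.7% of all genes, with a summed signal of 707 and 620 against 488 and 486. This list too was chosen with earlier results of these data known, and its genes are not independent replicates. The differences ran from -1.8 for Cd8a, not well above background in the mutants, to -0.03 for Cd4, whose groups overlapped. The part of T cells in the Lef1 values was not tested. Of 23 transcriptional targets 2 were higher and 1 lower, with a median of 0.11. The higher ones were Lgr5 and the cyclin gene Ccnd1 (615 and 679 in the controls, 1511 and 937 in the mutants), and the lower one was Prox1 (27.6 and 26.7 against 18.6 and 19.9). Axin2, a feedback inhibitor and common readout of beta-catenin activity, had 13.3 and 12.3 against 18.4 and 13.8, a difference of 0.32 ± 0.26 that did not pass the test. Proliferation markers, a list chosen with the same earlier results known, were higher in 10 of 10 cases, beside 53.3% of all genes tested. Their median was 0.85. Cell cycle genes move with the same samples as Ccnd1, and their part was not tested.

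The promoters of the members were read from RefSeq windows of GRCm38.p6, from 250 bases before to 50 after a transcription start. Windows were found for 29 of the 45 members, 32 windows in all. Their median GC content was 67.8%, beside 52.7% over 32851 windows of all genes, and their median number of CG dinucleotides was 26.5 beside 7. A core site of TCF and LEF factors, through which some Wnt genes are themselves controlled, was searched as CTTTGAA or CTTTGAT on both strands. It was in 3 of the 32 windows (9.38%) and in 8.65% of all windows, so its share was close to that of promoters at large. The stretches with the match are shown for the 2 of these members that were tested, Wnt5b (chr6:119449426-119449482, minus strand) and Wnt11 (chr7:98835036-98835092, plus strand), with the match in capitals, printed 5′ to 3′ along the gene.
Wnt5b promoter: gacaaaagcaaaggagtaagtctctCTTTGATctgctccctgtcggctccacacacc
Wnt11 promoter: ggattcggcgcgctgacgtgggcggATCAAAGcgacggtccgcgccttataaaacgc
The match starts 71 bases before the transcription start of Wnt5b and 51 before that of Wnt11. The third window was that of Dkk1, which was not above background. A match of letters is no evidence of binding, and neither Wnt5b nor Wnt11 passed the test.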

How the data were processed

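Each deposited file holds 1 array's spots, with linear intensity and detection flags; Agilent Feature Extraction 11.5.1.1 is named in the submitters' processing notes. Spatial and multiplicative detrending within the array were on, per the file headers, and a separate background correction was off for the processed signal, and a scaling between arrays is not given in the sources used here. All 4 arrays lay on 1 slide. Values were put on the log2 scale relative to their array's 75th percentile (268.5 to 330 intensity units). Outlier spots were dropped, a probe needed to be well above background on 2 of 4 arrays or more, and the brightest probe stood for its gene. A member passing through 1 group alone would have had to differ; no member did, and 26 of 27 were well above background on all 4 arrays. Genes were fitted together with limma 3.58.1 in R 4.3.3 (intensity trend, two-sided, mutant minus control, no block) and p-values adjusted over all 19326 genes by Benjamini-Hochberg. Intervals are at 95%. The number of arrays limits the precision.

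All 45 member names matched current RefSeq symbols. Probe coordinates are mm9, as in the files. The members and gene lists were chosen with earlier results of these data known. Values on every array are given for members with a log2 difference of at least 0.5 whose groups did not overlap and for the 2 brightest of each role. Those of other members were added after their values were seen. From each pathway list up to 4 genes by smallest p could be named, with Lgr5, Axin2, Rnf43, Znrf3 and Porcn always; Wls, Ctnnb1, Apc and Tcf7l2 were added for their role after their values were seen. The fit was tested on simulated data. Alternatives were normexp correction, quantile normalization, other filters, the mean of probes, no trend, a replicate block, a floor for dim values and leaving out each array.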

Additional observations from a re-analysis of the deposited data

Results flagged for a closer look

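For 10 members the replicate 1 pair and the replicate 2 pair differed in sign, and each pair is 1 sample of each genotype, so the difference between the pairs was not tested. The replicate 1 difference minus the replicate 2 difference was 2.10 for Wif1, 1.70 for Wnt4, 0.71 for Wnt5b, 0.70 for Sfrp1, 0.66 for Rspo1 and 0.40 for Sfrp4 on the log2 scale. It was -0.81 for Frzb, -0.68 for Fzd5, -0.32 for Lrp6 and -0.25 for Wnt6.

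Among the genes not tested, 2 ligands were well above background in a mutant sample and in no control. The scaled signal of Wnt9b was 30.3 in mutant replicate 2, and that of Wnt7b was 5.63 in the same sample. The Wnt9b signal rests on 1 probe on 1 array.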

How the results depend on the processing

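No member reached an adjusted p under 0.05 under any of the 12 alternatives, and 13 of 27 kept their sign under all that were run. At an unadjusted p there were 2 members without the intensity trend (Fzd6 and Fzd9), 2 with the replicate block (Sfrp2, Sfrp5), 1 of 45 without the filter on dim probes, and 0 to 3 without 1 array. The same counts over all genes were 1756 (9.09%) without the trend, 3383 (17.5%) with the replicate block, which called 46 genes at the adjusted threshold and no member, 3607 (9.73%) without the filter, and 864 to 2167 without 1 array. The replicate block changed no call of a member at the adjusted threshold. Same-numbered samples deviated together (r = 0.239 across genes) but share only a number and the Xist pattern. Without the filter on dim probes, 20 of 45 members had groups that did not overlap, beside 55.0% of all genes. The count was 7 of 27 after normexp correction or quantile normalization, beside 41.2% and 41.3%. Without 1 array it was 14 to 22, where 1 array stands against 2 and the share of all genes is 68.4% to 77.3%. The members' median difference was -0.32 to 0.0069 without 1 array; the latter is without control replicate 2. Between 12 and 20 members were lower without 1 array, and 17 after normexp correction or quantile normalization. Among the members whose sign did change were Wif1 (-0.63 without mutant replicate 1), Wnt4 (0.13 without control replicate 2) and Wnt6 (-0.52 without mutant replicate 2); the cause was not tested. Signal over background limits the 18 members not tested.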
